A study of Mus musculus with 3 samples.

Results

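MiR-132 and miR-212 are microRNAs cut from neighbouring hairpins of one primary transcript, and each hairpin can release a microRNA from its 5p and from its 3p arm. The 4 mature products (mmu-miR-132-3p, mmu-miR-132-5p, mmu-miR-212-3p and mmu-miR-212-5p, written below without the mouse prefix) were taken by name from the 1908 mature microRNAs listed for each library, of which 851 had at least 1 read in some library. The libraries, 1 per group, held small RNA of liver from male mice of the strain C57BL/6J, 8 to 10 weeks of age. The Sham group had a laparotomy without vascular occlusion and a wait of 90 min, the warm ischemia (WI) group had the vessels to the left and median lobes clamped for 90 min, and the ischemia-reperfusion (IR) group had the same clamping followed by 120 min of reperfusion. The study used 6 mice per group, and whether several mice entered a library is not given in the sources used here. All mice had fasted and had received chloral hydrate, and IR livers were taken later after surgery than Sham and WI livers, so reperfusion and time since surgery cannot be told apart.

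A microRNA represses messenger RNAs that pair with its seed, bases 2 to 8. The transcript of miR-132 and miR-212 is known from neurons, where the transcription factor CREB induces it through cAMP response elements (CREs) after synaptic activity, and miR-132 is known to repress the GTPase-activating protein p250GAP and the enzyme acetylcholinesterase. Usually one arm of a hairpin is loaded into the silencing complex and the other is degraded. The ratio of the arms is often read as a sign of which was kept, but loading was not measured here.

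The mature sequences of the 4 members (RefSeq, GRCm38.p6) are shown with the seed in capitals, because the seed decides which members can share targets.
miR-132-3p: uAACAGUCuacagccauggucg
miR-212-3p: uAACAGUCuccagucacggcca
miR-132-5p: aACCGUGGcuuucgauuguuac
miR-212-5p: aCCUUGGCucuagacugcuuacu

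The 3p arms share the seed AACAGUC, which no other mouse mature microRNA in the RefSeq table has. They are identical at 17 of 22 positions. Counted from the 5′ end, with the base of miR-132-3p first, they differ at A10C, C14U, U17C, U20C and G22A. The 5p arms share a seed neither with each other nor with any other of the 1679 mature names in that table. Aligned from the first base, the nearest mature sequence to each 3p arm was the other 3p arm, with 5 differences, and the nearest to each 5p arm had 9. Reads from 15 nt were kept with 1 mismatch allowed, and over 15 bases the 3p arms differ at A10C and C14U only, so a short read with a mismatch at either of these positions could match both 3p arms.

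Both hairpins lie on the plus strand of chromosome 11 in mm9, the build the methods of the study name. Mir212 lies at chr11:74986890-74986980 and Mir132, as RefSeq bounds it, at chr11:74987184-74987249. Both are in the first intron of the long non-coding RNA gene 1700016P03Rik (chr11:74986062-74991135). The hairpins are shown 5′ to 3′ with both mature arms in capitals, to place the arms whose ratio is followed here.
Mir212: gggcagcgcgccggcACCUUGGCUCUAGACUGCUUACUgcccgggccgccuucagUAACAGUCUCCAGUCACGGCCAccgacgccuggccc
Mir132: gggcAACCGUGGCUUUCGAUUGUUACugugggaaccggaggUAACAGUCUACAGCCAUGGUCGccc

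The palindromic CRE motif TGACGTCA was searched from 250 bases before the host gene to the end of Mir132 and was found 3 times, each time inside the intron. The copies before Mir212 end 110 and 94 bases upstream of that hairpin and are separated by 8 bases. The last copy ends 11 bases before Mir132 as GENCODE bounds it. The windows are shown with the motif in capitals.
Before Mir212, chr11:74986752-74986815, plus strand: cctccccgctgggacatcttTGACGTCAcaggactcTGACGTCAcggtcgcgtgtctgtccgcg
Before Mir132, chr11:74987128-74987175, plus strand: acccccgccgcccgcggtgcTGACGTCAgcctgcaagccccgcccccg

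The motif occurred in the 300 bases before 6 of 1577 annotated mouse microRNA hairpins (0.380%), and Mir132 and Mir212 are among these 6. It was found in 594 of 35731 windows of the same length around the starts of other genes (1.66%). The window at the start of 1700016P03Rik itself held no full motif and 2 matches to the shorter TGACG or its reverse complement CGTCA. At least 1 such match was held by 19.0% of gene starts. These matches are letters of the genome, and binding of CREB was not measured here.

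**Figure D1:**
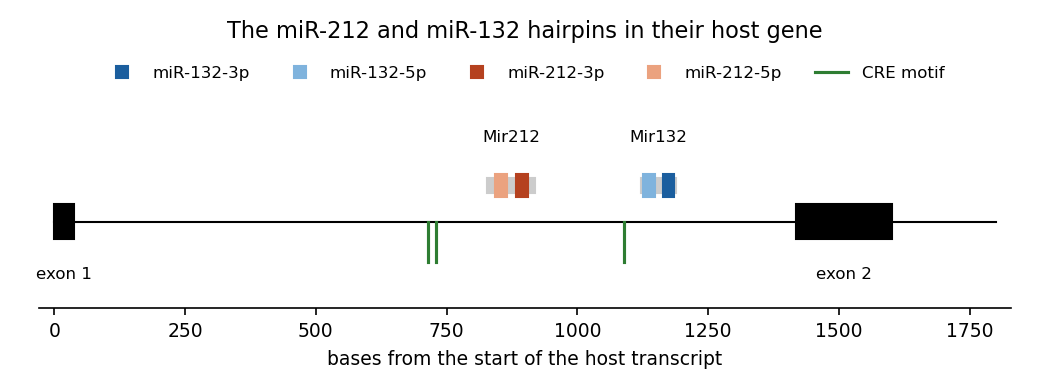
Map of the start of the host gene 1700016P03Rik. The horizontal axis gives bases from its start, black boxes are exons, grey boxes are the RefSeq hairpins with their mature arms in colour, and green lines are CRE motifs. Both hairpins and the 3 motifs sit between exon 1 and exon 2, with Mir212 starting 828 bases from the start.

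The Sham library held 3844133 microRNA reads, the WI library 5064014 and the IR library 3784539. By the paper's read statistics, a smaller share of small RNA reads aligned to the genome in IR than in Sham or WI. The part of this in the differences of IR was not tested. Levels are reads per 1000000 after scaling by trimmed mean of M-values (CPM), and 3 reads, taken as the smallest level to be told from none, correspond to 0.617 to 0.785 CPM. Their 95% intervals are exact Poisson intervals, and all intervals and p-values here cover counting error only. With 1 library per group a p-value speaks of the libraries compared rather than of the conditions, and replicates to check a difference against are lacking.

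MiR-132-3p was the most abundant member in every library. Its reads numbered 112 (Sham), 121 (WI) and 283 (IR). These correspond to 28.3 CPM (23.3 to 34.0), 24.9 CPM (20.6 to 29.7) and 74.0 CPM (65.6 to 83.1). The Sham and WI intervals overlap and the IR interval lies above both. Its rank among all microRNAs was 189 in Sham, 201 in WI and 146 in IR.

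MiR-212-3p, which carries the same seed, was read 36 times in Sham, 24 times in WI and 66 times in IR. Its levels were 9.09 CPM (6.37 to 12.6), 4.93 CPM (3.16 to 7.34) and 17.3 CPM (13.3 to 22.0). IR was again the highest library, and WI was the lowest, although the WI and Sham intervals overlap.

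MiR-212-5p, the opposite arm, fell on 47 reads of the Sham library, 36 of WI and 29 of IR. Its levels were 11.9 CPM (8.72 to 15.8), 7.40 CPM (5.18 to 10.2) and 7.58 CPM (5.08 to 10.9). It was highest in Sham, although all 3 intervals overlap, and did not share the higher level of the 3p arms in IR.

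MiR-132-5p, the minor arm of its hairpin, was close to the limit of these libraries. Sham gave 9 reads, WI 13 and IR 18. Its levels were 2.27 CPM (1.04 to 4.31), 2.67 CPM (1.42 to 4.57) and 4.71 CPM (2.79 to 7.44), and all 3 intervals overlap.

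The order of the members differed between the libraries. In Sham and WI it was miR-132-3p, miR-212-5p, miR-212-3p and miR-132-5p, and in IR miR-212-3p stood above miR-212-5p. MiR-212-5p and miR-212-3p did not differ beyond counting error in Sham, where miR-212-5p held 56.6% of their reads (95% Wilson interval 45.9 to 66.8), or in WI, where it held 60.0% (47.4 to 71.4). The lowest pair was not separated in WI, where miR-212-3p held 64.9% (48.8 to 78.2), or in IR, where miR-212-5p held 61.7% over miR-132-5p (47.4 to 74.2). Other neighbours were separated by intervals above 50%. Adapter ligation favours some sequences, so an order of reads is not an order of molecules.

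**Figure D2:**
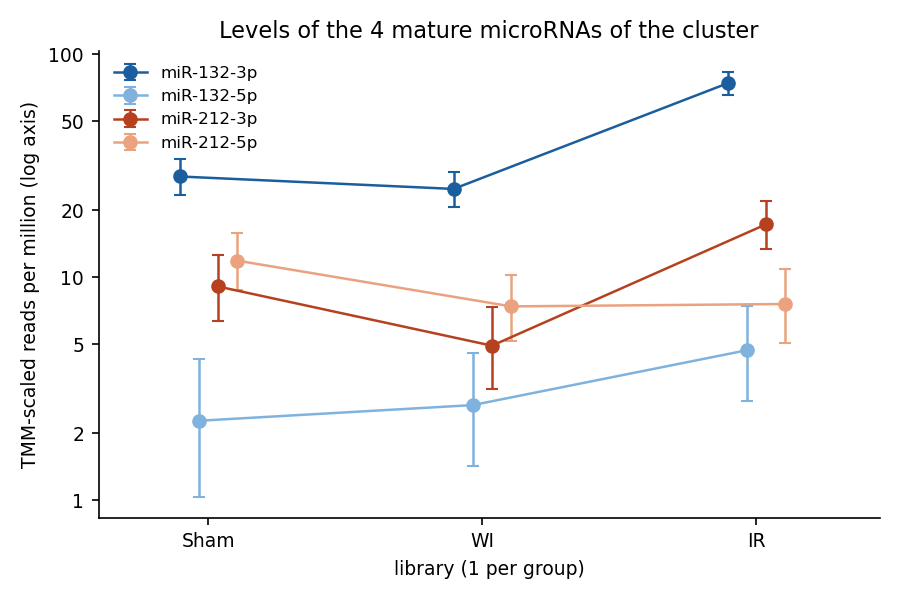
Levels of the 4 members in the 3 libraries, in TMM-scaled reads per 1000000 on a log axis. Points are single libraries, bars are 95% exact Poisson intervals, and lines join the values of one member. MiR-132-3p and miR-212-3p are highest in IR, at 74.0 and 17.3 CPM, while miR-212-5p is highest in Sham, at 11.9 CPM, with bars that overlap between the libraries.

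The comparison of WI with Sham asks what ischemia alone did to the cluster. MicroRNAs were called where the fold change exceeded 1.5 and Fisher's exact p was under 0.01, the criteria in the methods of the study. None of the 4 members was called. Over all microRNAs, 1.92% of 782 tested were called in either direction, and 4.76% of the 294 with at least 50 reads over both libraries. At any fold, 2 members had an unadjusted p under 0.05, as had 18.0% of the 782 and 43.2% of the 294, so this count is no result about the cluster. The level of miR-212-3p in WI was 0.543 times that in Sham (95% interval of the odds ratio 0.310 to 0.935), a log2 fold change of -0.87 (SE 0.38, Fisher's exact p = 0.0196, Benjamini-Hochberg adjusted p = 0.143 over all microRNAs). With library totals as the scale it was called, and with genome-aligned totals its Fisher's exact p was 0.0695. MiR-212-5p was at 0.623 times its Sham level (0.392 to 0.983), a log2 fold change of -0.67 (SE 0.32, Fisher's exact p = 0.0357, adjusted p = 0.223). With genome-aligned totals the Fisher's exact p of miR-212-5p was 0.101.

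Both arms of miR-212 thus lay lower in WI. Of the 294 microRNAs with at least 50 reads, 1 had a lower log2 fold change than miR-212-3p and 5 had a lower one than miR-212-5p. Both arms have few reads, where counting error alone gives larger changes, and these ranks carry no test. Summed over both arms, miR-212 had 83 reads in Sham and 60 in WI, a fold of 0.588 (0.415 to 0.830). The sum was formed after the values were seen and is given without a test. MiR-132-3p was at 0.879 times its Sham level (0.674 to 1.15, Fisher's exact p = 0.357), and miR-132-5p at 1.18 times (0.465 to 3.12), so neither arm of miR-132 differed beyond counting error. The median log2 fold change over all tested microRNAs was 0.05.

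The comparison of IR with WI asks what followed once blood returned. Both 3p arms rose and neither 5p arm was called, against 6.21% of 789 tested microRNAs called higher in IR and 12.4% of the 298 with at least 50 reads. MiR-132-3p rose 2.98-fold (2.40 to 3.71), a log2 fold change of 1.57 (SE 0.16, Fisher's exact p = 6.83e-26, Benjamini-Hochberg adjusted p = 1.22e-24). MiR-212-3p rose 3.50-fold (2.16 to 5.84), a log2 fold change of 1.79 (SE 0.34, Fisher's exact p = 2.49e-08, adjusted p = 2.39e-07). Of the 298 microRNAs, 7 had a higher log2 fold change than miR-212-3p and 12 had a higher one than miR-132-3p. Neither rise was called any longer when a coefficient of variation of 0.4 between animals was assumed.

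The 5p arms gave other values for the same interval. MiR-212-5p was 1.02 times its WI level (0.606 to 1.72, Fisher's exact p = 1). MiR-132-5p was 1.76 times its WI level (0.816 to 3.91), with a Fisher's exact p of 0.147, and its interval also holds the 2.98-fold rise of miR-132-3p. It rests on 31 reads over both libraries.

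The comparison of IR with Sham gives the end of the course. Again the 3p arms were called higher and the 5p arms were not called, against 5.68% of 774 tested microRNAs and 12.2% of the 288 with at least 50 reads called higher. This comparison shares the IR library with the previous one, so it is not a separate measurement of IR. MiR-132-3p rose 2.62-fold (2.10 to 3.29), a log2 fold change of 1.38 (SE 0.16, Fisher's exact p = 1.28e-19, Benjamini-Hochberg adjusted p = 2.41e-18). MiR-212-3p rose 1.90-fold (1.25 to 2.93), a log2 fold change of 0.92 (SE 0.30, Fisher's exact p = 0.0020, adjusted p = 0.0138). This smaller rise was no longer called when genome-aligned reads set the scale or when a coefficient of variation of 0.1 between animals was assumed.

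MiR-212-5p stood at 0.639 times its Sham level in IR (0.388 to 1.04), a log2 fold change of -0.64 (SE 0.34) with a Fisher's exact p of 0.0659. MiR-132-5p stood at 2.07 times its Sham level (0.884 to 5.23), with a Fisher's exact p of 0.0829. MiR-132-3p and miR-212-3p together, the whole seed family, stood at 37.4 CPM (Sham), 29.8 CPM (WI) and 91.3 CPM (IR). The rise of the pair from WI to IR was 3.06-fold (2.52 to 3.74).

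**Figure D3:**
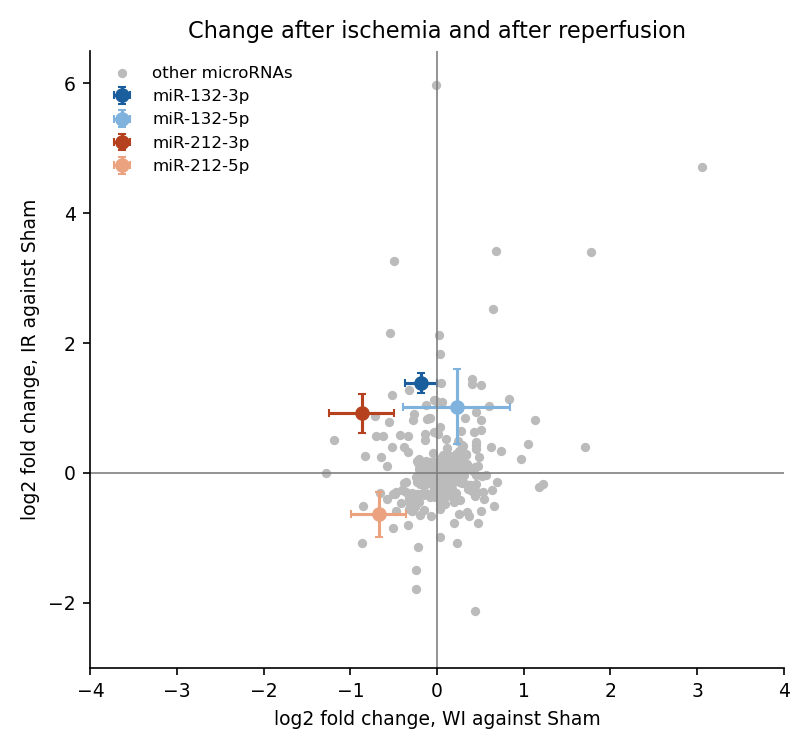
Log2 fold change of IR against Sham (vertical axis) and of WI against Sham (horizontal axis), both on log2(CPM + 0.1). Grey points are other microRNAs with at least 50 reads over the 3 libraries, coloured points are the 4 members (miR-132-5p has fewer reads), and bars are 1 SE from the reads. The 3p arms lie above the horizontal line, at 1.38 and 0.92, and miR-212-5p lies below it, at -0.64.

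The ratio of the arms was then compared between libraries, because it needs no scaling. Both arms come from the same library, so a constant preference of ligation for one arm cancels. Of the reads of miR-132, the 3p arm held 92.6% in the Sham library (95% Wilson interval 86.5 to 96.0), 90.3% in the WI library (84.1 to 94.2) and 94.0% in the IR library (90.7 to 96.2). The 3 intervals overlap. The ratio of 3p to 5p reads in IR was 1.26 times that in Sham (0.485 to 3.07, Fisher's exact p = 0.660) and 1.69 times that in WI (0.735 to 3.77, Fisher's exact p = 0.164).

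Of the reads of miR-212, the 3p arm held 43.4% in the Sham library (33.2 to 54.1), 40.0% in the WI library (28.6 to 52.6) and 69.5% in the IR library (59.6 to 77.8). Sham and WI did not differ beyond counting error, with a ratio in WI of 0.870 times that in Sham (0.418 to 1.80, Fisher's exact p = 0.733), and IR lay above both. The ratio of 3p to 5p reads in IR was 3.41 times that in WI (1.65 to 7.10, Fisher's exact p = 0.00042, Benjamini-Hochberg adjusted p = 0.00422 over 111 hairpins). It was 2.97 times that in Sham (1.54 to 5.77, Fisher's exact p = 0.00050, adjusted p = 0.00693). The arm with more reads was thus 5p in Sham and WI and 3p in IR, although in Sham and WI the arms did not differ beyond counting error. The reads of both arms of miR-212 summed to 83 (Sham), 60 (WI) and 95 (IR). The fold of this sum was 2.01 in IR against WI (1.44 to 2.83) and 1.19 in IR against Sham (0.874 to 1.61), given without a test.

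**Figure D4:**
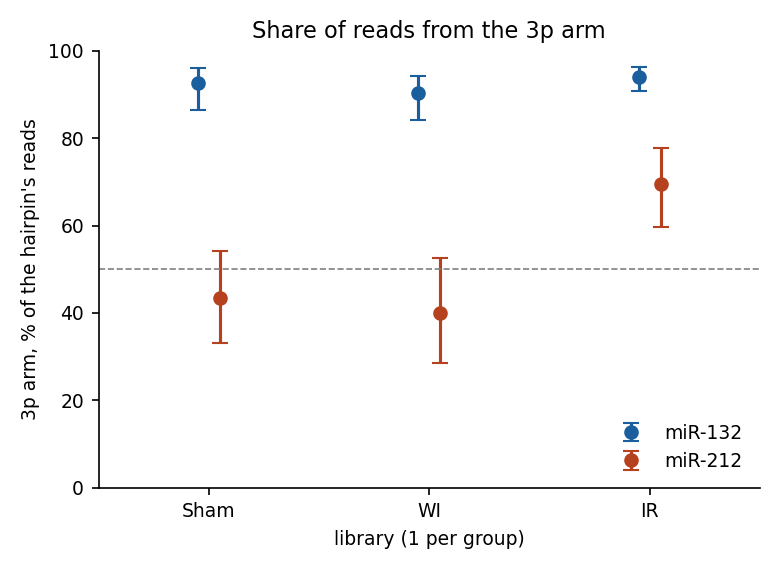
Share of each hairpin's reads that came from the 3p arm, in percent, in the 3 libraries. Points are single libraries, bars are 95% Wilson intervals, and the dashed line marks equal arms. MiR-132 lies between 90.3% and 94.0%, near the top of the scale, where a change of the ratio moves the share little. MiR-212 goes from 43.4% and 40.0% in Sham and WI to 69.5% in IR.

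The same test was run on every hairpin with both arms named and at least 10 reads in each arm over the libraries compared. A shift, defined as a ratio changed more than 1.5-fold with a Fisher's exact p under 0.01, was found in 4.46% of 112 hairpins between WI and Sham, in 6.31% of 111 between IR and WI and in 3.60% of 111 between IR and Sham. MiR-212 was among the shifted hairpins in both comparisons with IR, and miR-132 in none. This does not set the hairpins apart, because miR-132 had only 9 to 18 reads of its 5p arm per library. Its intervals, 0.485 to 3.07 against Sham and 0.735 to 3.77 against WI, also hold the 2.97 and 3.41 of miR-212. Between IR and Sham the others were miR-223, miR-30b and miR-30d, which are named here after their values were seen. By size of the change, miR-212 ranked 5 of 111 between IR and Sham and 4 of 111 between IR and WI. Most of these hairpins have more reads, and few reads give larger changes by counting error alone. By Fisher's exact p, miR-212 ranked 8 of 111 between IR and Sham and 11 of 111 between IR and WI. The arm with more reads changed between Sham and IR in 4 of 111 hairpins, and miR-212 was the 1 of these that also met the definition of a shift. Between WI and IR it changed in 4 of 111, of which miR-212 and miR-455 also shifted, and between Sham and WI in 1 of 112, miR-455, which shifted as well. A change of the arm with more reads was thus not particular to miR-212.

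**Figure D5:**
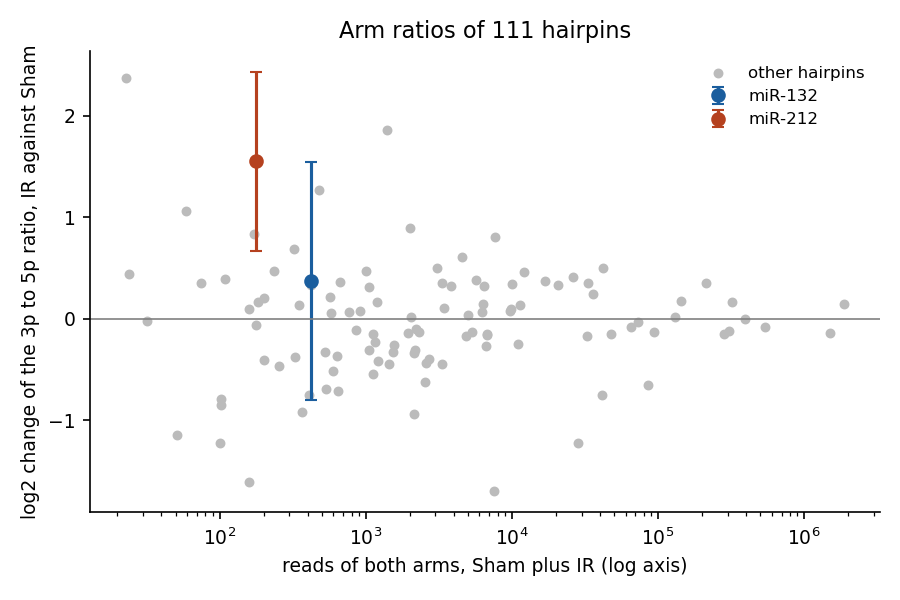
Change of the 3p to 5p ratio between IR and Sham on the log2 scale (vertical axis) against the reads of both arms (horizontal log axis) for 111 hairpins. Grey points are other hairpins, and bars on the coloured points are 95% intervals from the reads. MiR-212 lies at 1.55 and miR-132 at 0.37, where the median hairpin lies at -0.01.

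The timing of the hairpins was compared by the ratio of miR-132 to miR-212 reads of the same arm, with 6 tests in all. For the 3p arms this ratio was 3.11 in Sham, 5.04 in WI and 4.29 in IR, and no pair of libraries differed beyond counting error (Fisher's exact p from 0.112 to 0.609). From WI to IR the ratio changed by a factor of 0.850, with an interval of 0.486 to 1.45. The factor was 1.62 from Sham to WI (0.877 to 3.03) and 1.38 from Sham to IR (0.841 to 2.23). These wide intervals do not show equal timing. For the 5p arms the ratio was 0.191 in Sham, 0.361 in WI and 0.621 in IR. From Sham to IR it changed by a factor of 3.24 (1.18 to 9.26, unadjusted Fisher's exact p = 0.0136), on 9 and 18 reads of miR-132-5p.

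Other microRNAs whose genes are known to be induced by signals were set beside the cluster. The list held miR-21a-5p, miR-146a-5p, miR-146b-5p, miR-155-5p, miR-34a-5p, miR-210-3p, miR-221-3p and miR-222-3p, induced by factors such as NF-κB, AP-1, STAT3, p53 and HIF-1. In IR against Sham 0 of the 8 were called in either direction with Fisher's test, where 7.11% of all microRNAs were, and their median log2 fold change was 0.08, where the median of all microRNAs was 0.04. The most abundant of them, miR-21a-5p, stood at 34311 CPM (Sham), 40711 CPM (WI) and 48089 CPM (IR), and its log2 fold change of 0.49 from Sham to IR was below the fold threshold. In IR against WI 1 was called, miR-34a-5p, which fell by 0.59 on the log2 scale, where 9.25% of all microRNAs were called in either direction. Both counts lie near these shares and do not set the list apart from other microRNAs. The list was not tested against the cluster.

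Some markers of cell types other than hepatocytes also differed in IR, and in bulk liver a change in the number of cells of a type cannot be told apart from a change per cell. Neurons express the cluster strongly. Of 8 neuronal microRNAs, miR-124-3p, which defines neurons, had 0 reads in Sham and in WI and 4 in IR, and miR-9-5p, with 3, 4 and 29 reads, was called higher in IR against both. MiR-218-5p was called lower in IR against WI, with 15 reads in WI and 1 in IR. The summed level of the list was 51.8, 66.0 and 65.9 CPM in Sham, WI and IR, and most of it was miR-128-3p, which had 151, 233 and 179 reads.

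The summed level of 4 striated muscle microRNAs was 6.82, 24.3 and 76.1 CPM, and miR-133a-3p, the only one of them with more than 6 reads in any library, was called in each comparison. Of the red blood cell microRNAs miR-451a, miR-144-3p and miR-144-5p, all 3 were called higher in IR against Sham, and their sum was 1246, 1196 and 2157 CPM. Of the leukocyte microRNAs miR-223-3p, miR-142-3p, miR-142-5p and miR-150-5p, only miR-223-3p was called higher in IR, and the sum of the list was 3074, 3037 and 2792 CPM. The 4 hepatocyte microRNAs (miR-122-5p, miR-122-3p, miR-192-5p and miR-194-5p) and the 2 endothelial arms of miR-126a were not called in any comparison. The hepatocyte sum lay between 259963 and 285072 CPM. Over all tested microRNAs, 5.68% were called higher in IR against Sham and 6.21% in IR against WI. With at least 50 reads these shares were 12.2% and 12.4%, and the marker lists were not tested against them. The part of other cell types in the rise of the 3p arms was not tested.

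MicroRNAs with a course like that of the 3p arms were ranked by distance between pairs of log2 fold changes (WI and IR, each against Sham), over 316 other microRNAs with at least 50 reads in the 3 libraries. Nearest to miR-132-3p were miR-3535 (distance 0.17), miR-3470a (0.23), miR-200c-3p (0.30), miR-223-3p (0.33) and miR-714 (0.35). MiR-3535 stood at 15.4 CPM (Sham), 12.3 CPM (WI) and 37.7 CPM (IR). Nearest to miR-212-3p were miR-503-3p (0.15), miR-541-5p (0.34), miR-6236 (0.39), miR-381-3p (0.43) and miR-712-5p (0.45). Some of these places rest on few reads in Sham, WI and IR, with 15, 18 and 32 for miR-200c-3p and 15, 11 and 27 for miR-503-3p. The 3p arms themselves lay 0.83 apart. Among the 316, miR-212-3p ranked 27 from miR-132-3p, and miR-132-3p ranked 22 from miR-212-3p, so many other microRNAs lay nearer to each. From miR-212-3p, its own opposite arm was farther away, at 1.57. These distances rest on 1 library per group, with the smallest aligned share of reads in IR, and carry no test.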

How the data were processed

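The authors kept reads of 15 to 30 nt after removal of adaptors and low-quality reads, mapped them to mm9 with Bowtie 0.12.7 (1 mismatch, at most 5 positions), used HTSeq to sort RNA classes, and took microRNA counts from miRDeep2. The submitters' processing notes name the build mm10. The deposited values were raw counts of reads per mature microRNA, 1 library per group, with no molecular identifiers.

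Here counts were scaled by TMM factors (edgeR 4.0.16, R 4.3.3) over all microRNAs. Log2 fold changes were taken on log2(CPM + 0.1), which understates changes of low counts, and SEs came from the reads. Every microRNA with at least 1 read was tested by a two-sided Fisher's exact test (scipy 1.17.1) on reads and scaled totals, with Benjamini-Hochberg adjustment over all. No test with replicates could be fitted. Intervals of folds and ratios are exact conditional 95% intervals of the odds ratio. Arm ratios were tested on the 2 by 2 table of reads, with 0.5 reads added for the log2 change.

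The scripts were checked on simulated data. The members and lists were chosen with earlier results of these data known. Besides the members, the text names the 5 microRNAs nearest in course to each 3p arm and the members of the fixed lists, and the endothelial list was matched to miR-126a, the name in the files. Further hairpins were named after their values were seen. Positions come from GENCODE on NCBIM37 (mm9), where RefSeq hairpins and arms were located by exact match. Alternatives were other scalings (genome-aligned totals of the study, totals left after removing the 10 most abundant microRNAs, library totals, or size factors from DESeq2 1.42.0), and changes of pseudocount, read minimum, thresholds and the assumed variation between animals (edgeR's exact test).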

Additional observations from a re-analysis of the deposited data

How the results depend on the processing

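No paired analysis was possible because each group has 1 library, and for the same reason no library could be left out. Of 108 recomputed changes of the members, 99 kept their direction and their side of the thresholds, 7 were no longer called, 1 became called and 1 turned its direction. Part of this count was fixed in advance. The settings of assumed variation reused the main fold change, and the changes of pseudocount reused the main p-value. Only called changes could lose a call, so the 99 do not measure how stable the calls are. With an assumed coefficient of variation of 0.4 between animals, edgeR's exact test no longer called miR-132-3p (log2 fold change 1.57 in IR against WI, edgeR p = 0.0704, and 1.38 in IR against Sham, edgeR p = 0.110) or miR-212-3p (1.79 in IR against WI, edgeR p = 0.0544). In IR against Sham miR-212-3p (0.92) also lost its call in that exact test at 0.1 (edgeR p = 0.0117), 0.2 (edgeR p = 0.0749) and 0.4 (edgeR p = 0.310), and with genome-aligned totals (0.74). With library totals it was called in WI against Sham (-0.97, Fisher's exact p = 0.00911). With genome-aligned totals miR-212-5p changed sign in IR against WI (-0.28), and the sum of both arms of miR-132 in that comparison had a log2 fold change of 1.18 in place of 1.51 and the sum of the 3p arms 1.28 in place of 1.61. Changes of the arm ratios kept their direction and side without the 0.5 added reads. That setting reused the main p-value, so it is no check of the test. The arm ratios need no scaling, but variation of the ratio between animals was not measured.

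Over all microRNAs, there were 15 calls for WI against Sham, 73 for IR against WI and 55 for IR against Sham. They were 25 and 111 in the first and second of these with genome-aligned totals, which called 38 higher and 73 lower in IR against WI (49 and 24 with TMM) and 35 and 27 in IR against Sham (44 and 11), and moved the median log2 fold change in IR against WI to -0.32. With a fold above 2 the first and last were 9 and 35. In the same order they were 4, 33 and 24 at a coefficient of variation of 0.2, and 1, 6 and 10 at 0.4. With at least 200 reads required, 3 of the 5 microRNAs nearest to miR-132-3p and 2 of the 5 nearest to miR-212-3p were the same. The read counts limit miR-132-5p most, with 9 to 18 reads per library.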
